A study of Homo sapiens with 2 samples.

Results

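Semaphorins are secreted or membrane-bound guidance cues that share a sema domain, and plexins are their receptors. The cytoplasmic part of a plexin carries a GTPase-activating domain for small GTPases of the Ras family, and neuropilins are co-receptors that let most secreted class 3 semaphorins act on A-type plexins. The family was first known from axon guidance and also controls cell adhesion, vessel growth and immune cell contacts, where SEMA4A, SEMA4D and SEMA7A act between lymphocytes and other cells. All genes whose symbol starts with SEMA and a digit or with PLXN were taken, together with NRP1 and NRP2, which gave 31 of the 18930 genes in the table, namely 20 semaphorins, 9 plexins and 2 neuropilins. The family was chosen by name, but it was singled out because of the fold change of SEMA4A between these same libraries, so that no value below is a test of that difference.

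RNA sequencing was performed on 1 library labelled DR and 1 library labelled WT, for dacarbazine-resistant and wild-type cells, and both are labelled as A375, a human melanoma line from skin. The labels give 105 days of the drug (spelled DITC there) for both libraries, although the study treats WT as its control. Total RNA was used, and nothing states how many cultures went into a library. Each count column was matched to a sample through that sample's description. These descriptions differ by 1 character and name neither condition. Both column names, that taken as WT included, look like the DR sample's title, and neither looks like the WT sample's title. Every value given for either library and each direction given here depend on that match. After rounding, the estimated counts summed to 54878310 (DR) and 35294629 (WT) reads. With 1 library per group there is no replicate check, no test was made and every interval covers read counting only, and reads without molecular identifiers are not independent molecules.

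The labelled cell type was checked against lists of markers, using TPM, a level that divides the reads of a gene by its length and scales each library to the same sum. Of 15 melanocyte and melanoma markers 13 had counts, with a summed level of 60.2 (DR) and 48.7 (WT) TPM, and in each library 1 of them (MCAM) lay above the median of the genes tested. SOX10, a transcription factor of the melanocyte lineage though not of it alone, had 3 reads and 0 reads. TYRP1, an enzyme of pigment synthesis, had 0 reads and 17 reads. Others were detected but lay below that median, such as MITF with 1922 and 1211 reads (8.13 and 8.27 TPM). PMEL had 248 and 82 reads, and MLANA 123 and 89 reads. Of 13 plasma cell markers 12 lay above that median in each library, with summed levels of 6894 and 8066 TPM. The 7 B cell markers summed to 110.0 and 71.0 TPM, the 7 T cell markers to 13.0 and 7.27 TPM, the 7 myeloid markers to 23.3 and 19.7 TPM, 5 of 8 endothelial markers to 12.2 and 7.27 TPM, 5 of 7 fibroblast markers to 5.52 and 1.22 TPM and 5 of 7 keratinocyte markers to 22.4 and 26.8 TPM. The melanoma label thus went against the levels of these marker lists in both libraries, and the libraries are named by their labels only. In bulk RNA, fewer cells of a type and less RNA per cell cannot be told apart.

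SEMA4A (NCBI Gene 64218), a transmembrane class 4 semaphorin of dendritic cells and lymphocytes, had 24334 reads (DR) against 254 reads (WT). This was 437.1 against 7.30 CPM (reads scaled to library size, after TMM normalization), a 59.9-fold higher level in the library labelled DR (95% Clopper-Pearson interval 52.9 to 68.0). The log2 fold change, taken here and below on log2(CPM + 0.5), was 5.81, and 5 of the 16210 genes tested had a value at least as high, SEMA4A included. Per length, SEMA4A stood at 316.5 TPM (312.6 to 320.5) in the library labelled DR, rank 422 of 18267 genes with counts, and at 5.33 TPM (4.70 to 6.03) in the library labelled WT, rank 10316. It lay below the median gene of the library labelled WT (14.5 TPM over the genes tested) and far above that of the library labelled DR (14.4 TPM). Both counts of SEMA4A are whole numbers in the table, and fractional counts were found for 16 of the 31 members. Because SEMA4A was picked for this difference, its fold is a description. Markers of other cell types also differed between the libraries, where 7.42% of all genes tested were called higher and 4.19% lower. Of the B cell markers 3 of the 6 compared were called higher in the library labelled DR, namely MS4A1 (157 against 8 reads), CD79A (137 against 32) and CD79B (532 against 130). Of the 13 plasma cell markers 4 were called higher and 0 lower, although their summed level was lower in the library labelled DR. Of the 7 T cell markers 1 was called higher, TRAT1 (265 against 4 reads). Of the fibroblast markers both that were compared were called higher, COL1A1 (572 against 109 reads) and PDGFRB (209 against 1), and of the endothelial markers 2 of 4, PECAM1 (876 against 263) and VWF (111 against 25). The 4 myeloid markers compared gave 0 calls, and of the 4 keratinocyte markers compared 1 was called lower. The part of these cell types in the SEMA4A value was not tested.

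RefSeq promoter windows of 300 bases (250 before and 50 after a transcript start, GRCh38.p14) were available for 27 of the 31 members, in 48 windows. They are shown for SEMA4A, and for SEMA5A and PLXNA3, the members with the lowest and the second highest log2 fold change, so that the gene with the extreme fold can be set beside others of its family. SEMA4A has 4 annotated windows, of which 2 overlap, and the table of counts does not say which start was used. Of the overlapping pair only the first is shown, and the window left out holds 10 CpG pairs. The reads were mapped to another build (hg19), so these windows carry no measured values. CpG pairs are in capitals, and each window reads in the direction of transcription.
SEMA4A, chr1:156149694-156149993, plus strand: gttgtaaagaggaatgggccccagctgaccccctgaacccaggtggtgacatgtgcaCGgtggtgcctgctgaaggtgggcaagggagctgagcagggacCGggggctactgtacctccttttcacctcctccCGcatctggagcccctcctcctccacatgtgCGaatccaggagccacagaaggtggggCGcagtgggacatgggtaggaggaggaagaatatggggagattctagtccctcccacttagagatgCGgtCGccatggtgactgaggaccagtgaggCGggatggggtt
SEMA4A, chr1:156153335-156153634, plus strand: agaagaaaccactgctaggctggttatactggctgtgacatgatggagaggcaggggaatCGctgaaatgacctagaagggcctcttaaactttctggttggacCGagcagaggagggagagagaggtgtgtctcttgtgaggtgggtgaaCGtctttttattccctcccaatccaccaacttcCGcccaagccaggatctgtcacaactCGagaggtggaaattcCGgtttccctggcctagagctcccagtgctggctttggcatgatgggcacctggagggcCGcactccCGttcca
SEMA4A, chr1:156154298-156154597, plus strand: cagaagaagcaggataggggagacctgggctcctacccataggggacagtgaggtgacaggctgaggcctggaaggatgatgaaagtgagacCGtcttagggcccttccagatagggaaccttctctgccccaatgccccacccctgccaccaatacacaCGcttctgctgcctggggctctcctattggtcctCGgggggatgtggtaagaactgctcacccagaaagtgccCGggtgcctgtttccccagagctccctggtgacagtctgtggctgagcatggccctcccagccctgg
SEMA5A, chr5:9546026-9546325, minus strand: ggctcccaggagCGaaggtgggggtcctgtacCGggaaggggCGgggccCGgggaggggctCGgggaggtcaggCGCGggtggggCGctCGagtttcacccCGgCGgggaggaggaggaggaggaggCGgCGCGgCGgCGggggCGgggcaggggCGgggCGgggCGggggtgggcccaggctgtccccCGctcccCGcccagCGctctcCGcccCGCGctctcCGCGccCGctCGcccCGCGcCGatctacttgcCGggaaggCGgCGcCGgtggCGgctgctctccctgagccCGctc
PLXNA3, chrX:154458031-154458330, plus strand: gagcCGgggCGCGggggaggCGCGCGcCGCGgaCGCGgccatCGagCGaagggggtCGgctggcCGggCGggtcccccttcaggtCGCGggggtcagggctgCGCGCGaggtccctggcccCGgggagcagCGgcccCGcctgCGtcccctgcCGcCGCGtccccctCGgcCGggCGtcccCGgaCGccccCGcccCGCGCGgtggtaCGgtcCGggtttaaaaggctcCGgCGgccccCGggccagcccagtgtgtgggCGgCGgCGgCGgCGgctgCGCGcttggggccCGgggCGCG

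The SEMA4A windows held 4 to 10 CpG pairs, against a median of 14 over all 35116 windows and 17.5 over the 48 windows of the members, while the SEMA5A window held 39 and the PLXNA3 window 51. Of all windows, 24.5% to 43.6% held fewer CpG pairs than those of SEMA4A, 91.3% fewer than that of SEMA5A and 99.0% fewer than that of PLXNA3. Other members had windows with as few, such as SEMA4D with 6 and SEMA3G with 8. The GC box GGGCGG, searched on both strands, was found in 31 of the 48 member windows (64.6%) and in 45% of all windows. It was present in 1 of the 4 SEMA4A windows, 7 times in that of SEMA5A and 3 times in that of PLXNA3. TATAAA was found in 1 member window (2.08%, against 11.5% of all windows), that of SEMA3E, and CCAAT in 12 (25%, against 34.6%), among them 2 of SEMA4A. CACGTG was found in 3 member windows (6.25%, against 7.26%) and TGACGTCA in 2 (4.17%, against 1.85%), none of them of SEMA4A. TGACTCA was found in 0 member windows, against 4.95% of all windows. A match is a description of the letters and not a binding site, and windows of 1 gene can share bases.

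Levels of all 31 members in both libraries are plotted by class. Of the 31 members 29 had at least 10 reads over both libraries and were compared, and NRP1 and SEMA3E did not reach that number. A gene was called where its log2 fold change was at least 1 in size and its counting interval excluded a fold of 1. By this rule 6 members were called higher in the library labelled DR (20.7% of the 29, against 7.42% of all 16210 genes tested), 5 of them semaphorins. In the other direction 1 member was called (3.45%, against 4.19%), and 11.6% of all genes tested were called in either direction. Of the 29 members 21 had a log2 fold change above 0 (50.6% of all genes tested did), with a median of 0.47 against 0.01 over all genes tested. These members were taken with this contrast known, and nothing is read from the shares.

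**Figure D1:**
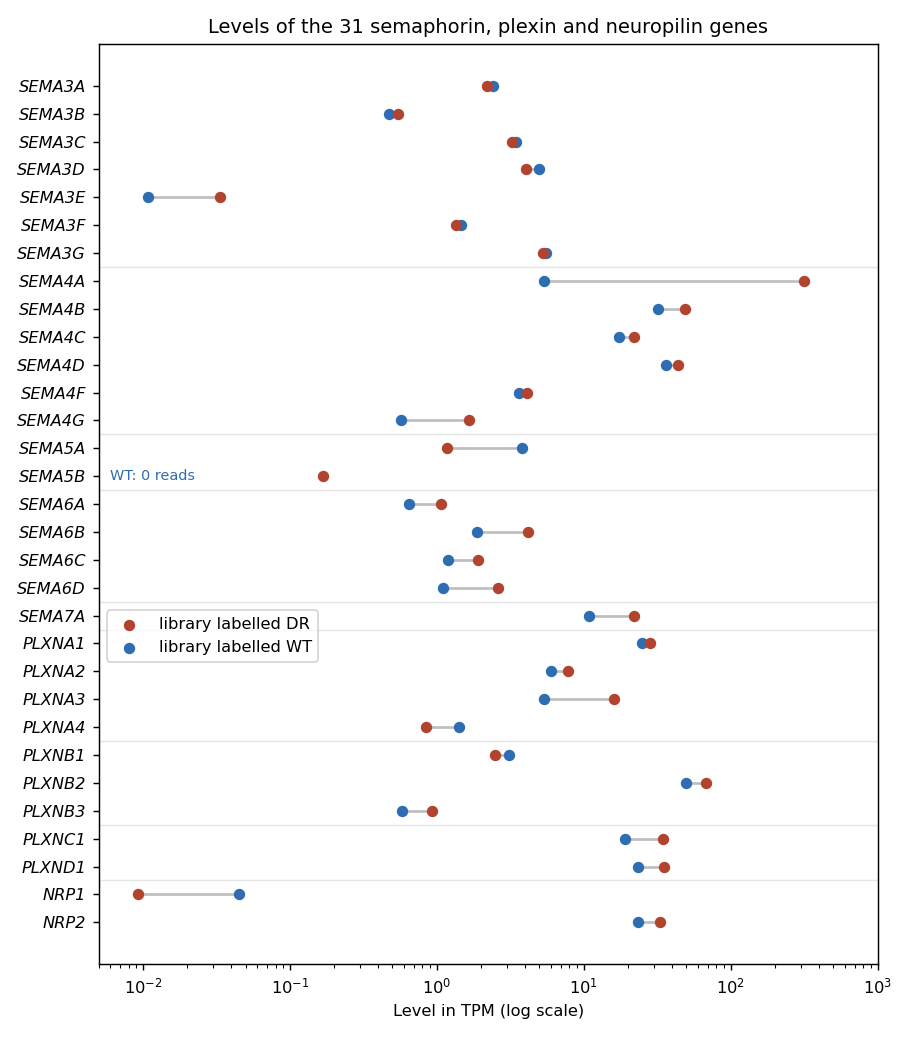
Level of each member in TPM (log axis), with 1 point per library joined by a grey line, and thin lines between classes. SEMA4A spans 5.33 to 316.5 TPM, the widest gap among members with reads in both libraries, SEMA5A lies higher in the library labelled WT, and the class 3 semaphorins from SEMA3A to SEMA3G nearly coincide, apart from SEMA3E at 5 reads and 1 read.

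**Figure D2:**
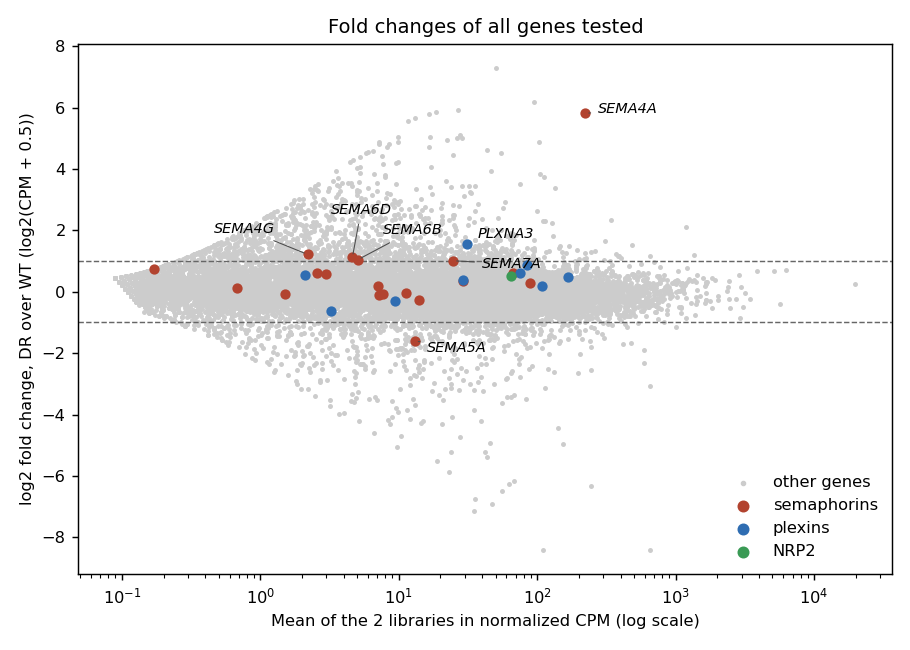
Log2 fold change (library labelled DR over library labelled WT) of each gene tested against its mean level in CPM (log axis), with the fold limit of 1 as dashed lines. SEMA4A stands at 5.81, and the other called members lie between -1.602 (SEMA5A) and 1.56 (PLXNA3).

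Among the ligands, class 4 took the leading place in both libraries. SEMA4B had 4463 (DR) and 1836 (WT) reads, the order used from here on, a 1.52-fold higher level (1.44 to 1.61) that was not called. SEMA4D, the semaphorin of T and B cells that binds PLXNB1 and CD72, had 5450 and 2793 reads and a fold of 1.22 (1.17 to 1.28). SEMA4C, a ligand of PLXNB2, had 1811 and 894 reads and a fold of 1.27 (1.17 to 1.37). The class 4 genes other than SEMA4A and SEMA4G thus differed by less than the limit, although most of their intervals excluded 1. SEMA4F had 420 and 229 reads, and its interval (0.974 to 1.35) included 1. SEMA4G had 182 reads and 39 reads, which was 3.27 against 1.12 CPM, and was called higher in the library labelled DR (2.92-fold, 2.05 to 4.24). At 1.66 and 0.573 TPM it stayed among the lower members in both libraries.

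The make-up of the semaphorin transcripts differed mostly in SEMA4A. All semaphorins together summed to 486.6 (DR) and 133.4 (WT) TPM, a ratio of 3.65. Without SEMA4A the sums were 170.1 and 128.1 TPM, a ratio of 1.33. In the library labelled DR the order was SEMA4A with 65.0% of the summed TPM, SEMA4B with 9.98%, SEMA4D with 9.05%, SEMA4C with 4.51% and SEMA7A with 4.50%. The last of these pairs did not differ beyond counting, at 21.95 TPM (20.95 to 22.99) and 21.88 TPM (20.89 to 22.90). In the library labelled WT the order was SEMA4D (27.3%), SEMA4B (24.2%), SEMA4C (13.1%), SEMA7A (8.09%), SEMA3G (4.14%) and SEMA4A (3.996%). There SEMA4A at 5.33 TPM could not be told from SEMA3G at 5.52 TPM (4.99 to 6.09) by read counting.

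**Figure D3:**
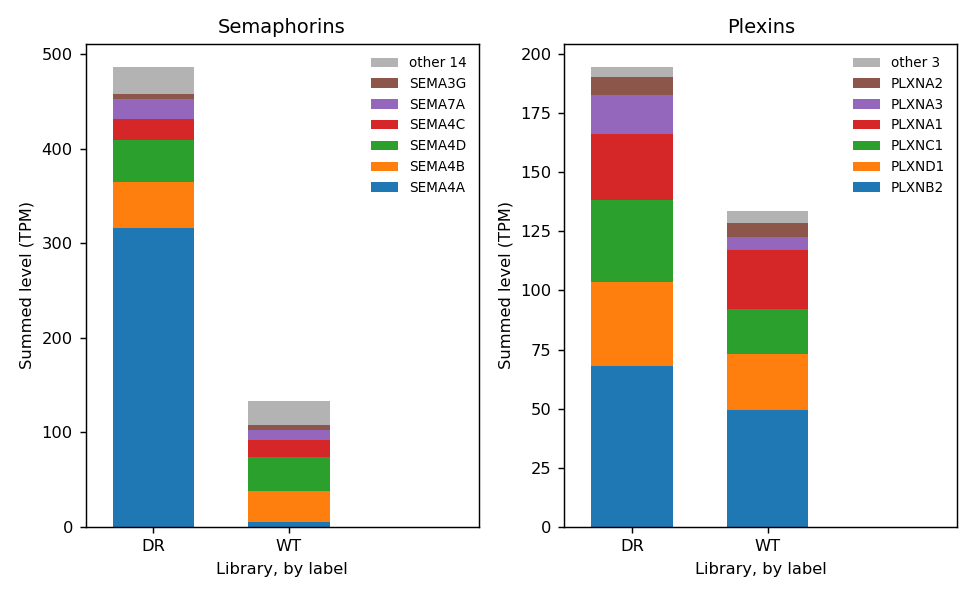
Summed TPM of the semaphorins (left) and plexins (right) in each library, stacked by the 6 genes with the highest sum of both libraries and the others. SEMA4A fills 65.0% of the semaphorin bar of the library labelled DR and 3.996% of that labelled WT, while PLXNB2 leads the plexins in both (35.1% and 37.1%).

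SEMA7A is anchored in the membrane by a lipid, binds PLXNC1 and the integrin chain ITGB1, and is the only member of its class. It had 1845 and 564 reads, or 33.1 and 16.2 CPM. Its level was 2.04-fold higher in the library labelled DR (1.86 to 2.25), and its log2 fold change of 1.01 lay just past the limit. PLXNC1, its receptor, had 6050 and 2050 reads and lay just under the limit at 0.88 on the log2 scale (1.84-fold, 1.75 to 1.94).

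The transmembrane class 6 semaphorins, which signal through A-type plexins, were at low levels and all had a log2 fold change above 0. The 6 class 4 genes and 50.6% of all genes tested were also above 0, and 7.42% of all genes tested were called higher. SEMA6D, a ligand of PLXNA1, had 363 and 95 reads and was called higher in the library labelled DR (2.39-fold, 1.90 to 3.03, log2 fold change 1.12). SEMA6B had 389 and 109 reads and was called as well (2.23-fold, 1.80 to 2.78, log2 fold change 1.04). SEMA6A had 178 and 67 reads, and its level was 1.66-fold higher (1.25 to 2.23) without a call. SEMA6C was similar, with 203 and 79 reads and a fold of 1.61 (1.23 to 2.11). None of the class 6 genes exceeded 4.17 TPM in either library.

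Class 5 semaphorins carry thrombospondin repeats beside the sema domain, and SEMA5A is a ligand of PLXNB3. SEMA5A had 346 and 692 reads, or 6.22 and 19.9 CPM. It was the one member called lower in the library labelled DR, 3.20-fold (2.81 to 3.65), with a log2 fold change of -1.602. SEMA5B had 19 and 0 reads, which is a 3.96-fold higher level in the library labelled DR where the floor of 3 reads stands in for 0. The counting interval of its fold had a lower end of 2.92. It was not called on the log2 scale used here (0.75).

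The secreted class 3 semaphorins, whose co-receptors are the neuropilins, gave 0 called genes among the 6 with enough reads. Over all genes tested 11.6% were called in either direction, and nothing is read from a count this small. SEMA3G had 621 and 400 reads and a fold of 0.970 (0.854 to 1.10), SEMA3C had 417 and 275 reads and a fold of 0.948 (0.812 to 1.11), and SEMA3A had 383 and 260 reads and a fold of 0.921 (0.784 to 1.08). The intervals of SEMA3F (81 and 54 reads) and SEMA3B (41 and 22 reads) also included 1, at 0.656 to 1.35 and 0.678 to 2.05. SEMA3D had 703 and 531 reads and was lower in the library labelled DR by less than the limit (fold 0.827, 0.738 to 0.928). SEMA3E, a ligand of PLXND1, had 5 reads and 1 read after rounding, a ratio of 3.13 with a counting interval of 0.350 to 147.8. No class 3 gene exceeded 5.52 TPM.

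Of the receptors, PLXNA3 was the one called plexin. It had 2604 and 540 reads, or 46.8 and 15.5 CPM, and was 3.01-fold higher in the library labelled DR (2.75 to 3.31, log2 fold change 1.56). Its counts are fractional in the table, as are those of the called SEMA4G, SEMA5A and SEMA6D. How the counts were estimated is not given. Per length it stood at 16.1 and 5.40 TPM, which was 8.30% and 4.05% of the summed plexin level. The other A-type plexins differed less. PLXNA1, with 6425 and 3528 reads, had a fold of 1.14 (1.09 to 1.19), and PLXNA2, with 1836 and 879 reads, a fold of 1.31 (1.204 to 1.42). PLXNA4, with 135 and 140 reads, was lower in the library labelled DR without a call (fold 0.603, 0.472 to 0.769).

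PLXNB2 was the plexin with the highest level in both libraries, at 68.2 and 49.6 TPM, and PLXNB2, PLXND1, PLXNC1 and PLXNA1 together made up 85.5% and 87.6% of the summed plexin TPM. In the library labelled DR, PLXND1 at 35.2 TPM (34.2 to 36.2) and PLXNC1 at 34.7 TPM (33.8 to 35.6) could not be told apart by read counting. In the library labelled WT, the intervals of PLXNA1 at 25.1 TPM (24.2 to 25.9) and PLXND1 at 23.4 TPM (22.4 to 24.5) overlapped at their ends. Neither of these levels lay inside the interval of the other gene, and PLXNC1 followed at 19.0 TPM. All plexins summed to 194.6 and 133.6 TPM, a ratio of 1.46.

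Of the neuropilins 1 was detected above 3 reads. NRP2, a co-receptor for SEMA3F and for VEGFC, had 4254 and 1862 reads (33.1 and 23.4 TPM) and a 1.43-fold higher level in the library labelled DR (1.35 to 1.51) without a call. NRP1, a co-receptor for SEMA3A and VEGFA, had 1 read and 3 reads, at or under the floor in both libraries, so that no fold is given. The upper counting limits of its level were 0.0518 and 0.132 TPM.

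For SEMA4A, 7 genes were set beside it, which are known receptors or binding partners or, for HAVCR2, only a relative of one. Of these genes 4 are plexins. PLXNB2 had 10840 and 4882 reads (fold 1.39, 1.34 to 1.44), PLXND1 had 5030 and 2075 reads (1.52, 1.44 to 1.595), and PLXNB3 had 143 and 56 reads (1.596, 1.16 to 2.21). PLXNB1 had 466 and 361 reads and went the other way (0.807, 0.702 to 0.928). None of these plexins was called. HAVCR2, of the TIM family of immune receptors, in which a mouse relative binds SEMA4A, had 3371 and 802 reads and was called higher in the library labelled DR (2.63-fold, 2.43 to 2.84). LILRB2, an inhibitory receptor of myeloid cells, had 16 and 8 reads, and its interval of 0.505 to 3.37 included 1. Per length, SEMA4A had 4.64 (DR) and 0.108 (WT) times the TPM of PLXNB2, 8.996 and 0.228 times that of PLXND1, and 5.72 and 0.251 times that of HAVCR2. SEMA4A thus lay below these 3 genes in the library labelled WT and above them in the library labelled DR. It lay above the others with enough reads in both libraries, with 126.5 and 1.71 times the TPM of PLXNB1. Against PLXNB3 it had 342.0 and 9.12 times the TPM, and against LILRB2 1446 and 30.2 times. These ratios contain the fold of SEMA4A itself and are not a separate result.

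The other genes of the pathway were taken from lists of co-receptors, effectors, cytoskeletal targets, processing enzymes and VEGF ligands. With HAVCR2 and LILRB2 these are 72 genes, of which 70 were compared. The rule called 8 as higher (11.4%), HAVCR2 included, and 4 as lower (5.71%), against 7.42% and 4.19% of all genes tested, with a median log2 fold change of 0.07.

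Of the non-plexin receptors 13 were compared and 1 was called. MET, the receptor tyrosine kinase that couples to B-type plexins, had 189 and 47 reads (2.51-fold higher, 1.82 to 3.54). ERBB2, another partner of B-type plexins, lay just under the limit at 0.96 on the log2 scale with 610 and 187 reads. CD72, the SEMA4D receptor of B cells, had 396 and 136 reads (1.82-fold, 1.49 to 2.23), and ITGB1, to which SEMA7A binds, had 6052 and 5643 reads (0.670-fold, 0.646 to 0.695).

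Plexin effectors gave 3 genes called higher and 3 called lower among 28. The GTPases RHOD (127 and 17 reads, 4.67-fold, 2.80 to 8.27) and RND3 (832 and 193 reads, 2.69-fold, 2.30 to 3.17) and the oxidoreductase MICAL3 (2729 and 675 reads, 2.53-fold, 2.32 to 2.75) were higher in the library labelled DR. ARHGEF12, an exchange factor that binds the tail of B-type plexins and activates RHOA, had 10864 and 22179 reads and a log2 fold change of -1.71. Its relative ARHGEF11 lay just under the limit at -0.99, with 2404 and 3008 reads. Also just under it were ARHGAP35 at -0.92 (3780 and 4488 reads) and, in the other direction, TIAM1 at 0.98 (1525 and 474 reads). FARP1, an exchange factor with a FERM domain, had 557 and 1214 reads (-1.75), and the kinase FES had 23 and 101 reads (-1.90). The GTPases RHOA and RAC1 differed little, with log2 fold changes of 0.04 each.

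Among 15 genes of the cytoskeleton and the collapsin response, DPYSL3, of the family of collapsin response mediators, had 908 and 5 reads. Its fold of 113.5 (48.5 to 350.4) rests on those 5 reads, and its log2 fold change was 4.71. DPYSL2, which relays SEMA3A signals in neurons, had 4738 and 1293 reads (2.29-fold higher, 2.15 to 2.44). PAK1, a kinase downstream of RAC1, had 1549 and 4324 reads and was called lower (-2.14 on the log2 scale). Of 7 processing enzymes, PCSK6, a proprotein convertase, was called higher with 573 and 99 reads (3.62-fold, 2.92 to 4.52), while FURIN, which cleaves class 3 semaphorins, had 4111 and 1435 reads (1.79-fold, 1.69 to 1.90) without a call. Of the 5 VEGF ligands 0 were called. VEGFA had 4595 and 4163 reads (0.690-fold, 0.661 to 0.720) and VEGFC had 14 and 29 reads (0.302-fold, 0.147 to 0.590). VEGFD had 2 and 8 reads (0.156-fold, 0.0162 to 0.783), and its 2 reads lie under the floor of 3 reads, so that this fold is uncertain. PGF went the other way with 23 and 4 reads (3.59-fold, 1.23 to 14.3). At such low counts the 0.5 CPM that is added kept VEGFC (-0.83), VEGFD (-0.45) and PGF (0.57) under the log2 limit.

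**Figure D4:**
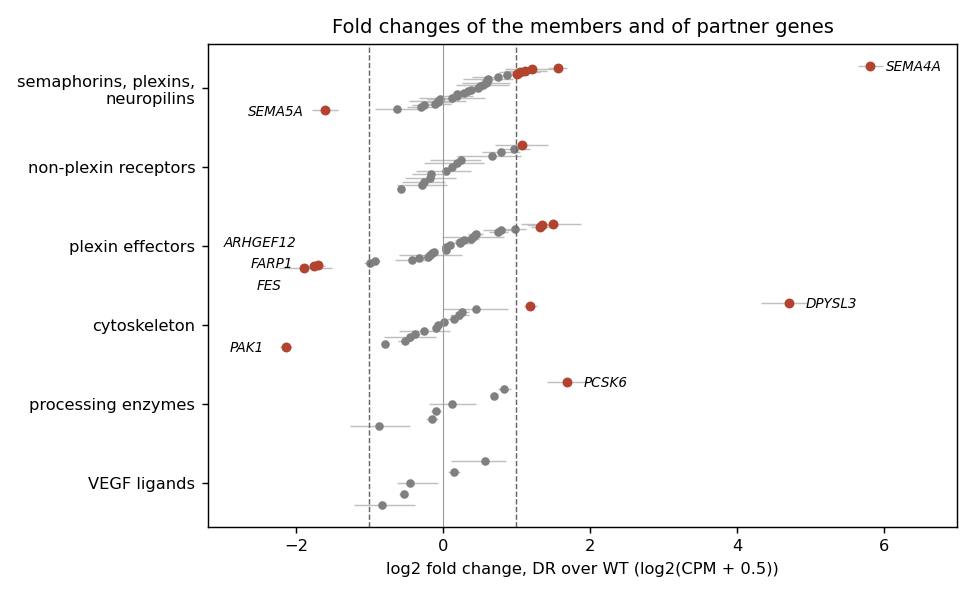
Log2 fold change (library labelled DR over library labelled WT) of each member compared and of the partner genes by list, with 95% counting intervals as grey bars, called genes in red and the fold limit of 1 dashed. HAVCR2 and LILRB2, which are in none of these lists, are not plotted. SEMA4A (5.81) and DPYSL3 (4.71) stand apart to the right, and PAK1 (-2.14) lies farthest to the left.

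Finally, the genes next to the called members on the chromosome were compared, using the order of protein-coding genes in RefSeq. Of the 10 nearest neighbours of SEMA4A with counts, 9 were compared. None was called higher in the library labelled DR, and 3 were called lower. Over all genes tested 7.42% were called higher and 4.19% lower, and nothing is read from such small sets of neighbours. LMNA, the nuclear lamin gene on one side, had 16390 and 15675 reads (0.654-fold, 0.639 to 0.668), and SLC25A44, on the other side, had 3463 and 2758 reads (0.785-fold, 0.746 to 0.825). The neighbours called lower were PAQR6 (504 and 1512 reads), MEX3A (320 and 477 reads) and PMF1-BGLAP (189 and 262 reads). PMF1-BGLAP overlaps PMF1 and BGLAP, and its count is uncertain. None of the 10 neighbours of PLXNA3 was called, and their log2 fold changes ran from -0.34 to 0.10. Around SEMA5A, 1 of the 8 neighbours compared was called, CMBL, with 898 and 180 reads and a higher level in the library labelled DR, opposite to SEMA5A. Around SEMA7A, 1 of 9 was called, ISLR, with 313 and 12 reads (16.3-fold, 9.20 to 31.9), in the same direction as SEMA7A. Around SEMA6B, 1 of 10 was called, PLIN5, with 287 and 67 reads (2.68-fold, 2.05 to 3.55), in the same direction as SEMA6B. Of the 10 neighbours of SEMA4G and the 6 of SEMA6D that were compared, 0 were called.

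**Figure D5:**
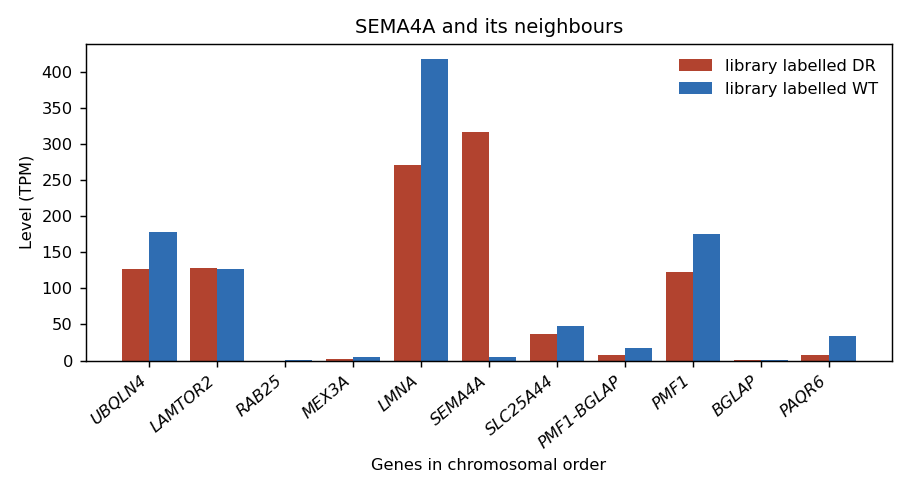
TPM of SEMA4A and of its 5 nearest protein-coding genes with counts on each side, in chromosomal order, in both libraries. SEMA4A is 316.5 against 5.33 TPM, while LMNA beside it is 270.6 against 417.7 TPM.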

How the data were processed

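The authors deposited 1 table with estimated counts per gene of both libraries, gene lengths, annotation and their own log2 ratio, p-value, q-value and direction marks (WT over DR by its header), which were not used. The submitters' processing notes name Bowtie 0.12.2 and hg19, and the counting tool and annotation are not given in the sources used here. Counts are fractional for 9108 of 18267 genes, and 663 genes hold none. They were rounded to whole reads, and TPM was computed from the lengths in the table, which are not corrected for fragment size. Fractional counts can share reads between similar or overlapping genes by estimation, so members with them are taken as less certain.

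Library sizes were scaled by TMM in edgeR 4.0.16 (factors 1.01 and 0.986, R 4.3.3). Genes reaching 10 reads in the sum of the libraries were compared on log2(CPM + 0.5), which understates folds of low genes. Intervals are 95% exact Clopper-Pearson intervals of the read share, or exact Poisson intervals for TPM. SciPy 1.17.1, NumPy 2.4.6 and pandas 2.3.3 were used with Python 3.11.15. Calls needed a size of 1 or more on the log2 scale and an interval off a fold of 1, with no p-value, since edgeR's test could not be fitted to 1 library per group. Alternatives were the size factors of DESeq2 1.42.0, library totals, no filter or 50 reads, pseudocounts of 0.1 and 5 CPM, a log2 limit of 2 and reads not divided by length. Leaving out genes with fractional counts, and the median without SEMA4A, were added after seeing the data.

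Named were SEMA4A and its receptor list, called members, the 5 members with the highest TPM in either library, members within 0.2 of the log2 limit and called partner genes. The remaining members, partner genes near the limit or central to the pathway, and neighbouring genes were added after their values were seen. Members and lists were chosen with earlier results of these data known. VEGFD was matched under its older symbol.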

Additional observations from a re-analysis of the deposited data

How the results depend on the processing

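No paired analysis was possible because there was 1 library per group, and for the same reason no replicate could be left out. All 7 member calls were kept, with the same 7 genes, with no filter, with at least 50 reads, on library totals and on the size factors of DESeq2, and a pseudocount of 0.1 CPM added SEMA5B. Neither scaling changed the sign of any of the 29 members compared, and the median log2 fold change of all genes tested was 0.04 on library totals and 0.01 on the size factors of DESeq2. A pseudocount of 5 CPM left 2 members called higher (SEMA4A and PLXNA3) and 1 lower, moved SEMA4A to 5.17 and the member median to 0.25, and left 418 and 337 of all genes and 4 partner genes called higher, since it shrinks folds of low genes. A log2 limit of 2 left 1 member called higher (SEMA4A) and 0 lower, with 338 and 189 of all genes and 1 and 1 partner genes. A pseudocount of 0.1 CPM raised the partner genes called lower to 7. Without genes with fractional counts, which removes PLXNA3, SEMA4G, SEMA5A and SEMA6D from the comparison, 3 members were called higher and 0 lower (703 and 359 of all genes). Without SEMA4A the member median was 0.42. Reads not divided by length put SEMA4A at 57.6% of the semaphorin reads of the library labelled DR. Of the 40 single-gene fold changes of other named genes, 1 left its counting interval on the size factors of DESeq2, 2 on library totals, 4 with 0.1 CPM and 21 with 5 CPM, and none of those that were called changed sign. Depth limits NRP1, SEMA3E and SEMA5B. The spread between cultures cannot be had from these libraries.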
